A study of Homo sapiens with 6 samples.

Results

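The genes described here encode S100 calcium-binding proteins in NB4 cells, a human promyelocytic leukemia cell line. They were chosen by name: S100A4, S100A6, S100A8, S100A9, S100A11, S100A12, S100A13 and S100P, which is 8 genes, of which 6 had a row among the 18625 genes of the table. S100A8 and S100A12 had no row in the table analysed here and have no value below. NB4 cells had been treated with Tanshinone I (Tan I) at 10 μM for 3 days or with DMSO, the solvent control, for 3 days, and RNA-seq was performed on 3 libraries per group. Both groups came from this single cell line, and nothing in the labels says whether the 3 libraries of a group came from separate cultures, so the p-values measure the spread between these libraries, which may be technical.

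S100 proteins are small proteins with a pair of EF-hand calcium-binding motifs, and most of them work as dimers that change shape when calcium binds and then dock onto partner proteins. S100A8 and S100A9 form calprotectin, a major cytosolic protein of mature neutrophils and monocytes, and S100A12 is a related protein of granulocytes. S100A4 binds the heavy chain of non-muscle myosin, S100A6 binds CACYBP, S100A11 binds annexins, S100A13 takes part in the release of proteins that lack a signal peptide, and S100P binds ezrin. Outside the cell, several of them are ligands of the receptor AGER (RAGE) and of TLR4. In granulocyte development S100A8 and S100A9 are known as late genes, high in maturing cells and low in promyelocytes.

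On GRCh38, 7 of the 8 genes lie on chromosome 1 between 152032506 and 153631360, in the S100 gene cluster, and S100P lies alone on chromosome 4 from 6693878 to 6697170 on the + strand. The canonical transcripts of the 7 genes on chromosome 1 have 3 exons each and that of S100P has 2. S100A4 overlaps S100A3, which is on the same strand, and S100A13 overlaps S100A1, which is on the other strand. Long noncoding RNA genes with no row in the table also overlap S100A11 and S100A6 on the other strand and S100A13 on the same strand. No strand setting is given for the counting, so reads in the stretch that S100A13 and S100A1 share cannot be assigned with certainty. The same holds for any exon stretch that S100A11 or S100A6 shares with a noncoding gene. For S100A4 and S100A3, strand could not separate reads in any exon stretch that they share. Nor could it for S100A13 and the noncoding gene on its strand.

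The 80 bases just before the transcription start of each gene are shown because the genes, although listed together as one protein family, differ in the DNA in front of them. The sequences are from RefSeq on GRCh38.p14, written 5′ to 3′ on the strand of the gene, and the capitals mark TATAAA, the core of the element that binds the TATA-binding protein. All 8 genes were matched by symbol, and each RefSeq start is the same base as the start of the GENCODE release 44 canonical transcript. In the order below they lie at chr1:153391074-153391153 (- strand), chr1:153357774-153357853 (+ strand), chr1:153375622-153375701 (- strand), chr1:153545807-153545886 (- strand), chr1:153627506-153627585 (- strand), chr4:6693798-6693877 (+ strand), chr1:153535992-153536071 (- strand) and chr1:152037005-152037084 (- strand).
S100A8: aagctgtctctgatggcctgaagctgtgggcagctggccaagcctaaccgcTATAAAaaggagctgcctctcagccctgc
S100A9: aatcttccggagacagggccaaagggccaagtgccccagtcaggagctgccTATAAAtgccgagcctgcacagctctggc
S100A12: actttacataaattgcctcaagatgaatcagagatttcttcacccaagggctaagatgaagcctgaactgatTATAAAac
S100A4: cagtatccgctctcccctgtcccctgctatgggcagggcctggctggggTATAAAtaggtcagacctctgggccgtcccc
S100A13: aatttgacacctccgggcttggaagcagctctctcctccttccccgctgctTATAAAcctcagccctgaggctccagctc
S100P: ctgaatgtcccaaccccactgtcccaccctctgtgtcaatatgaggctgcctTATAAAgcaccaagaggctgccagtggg
S100A6: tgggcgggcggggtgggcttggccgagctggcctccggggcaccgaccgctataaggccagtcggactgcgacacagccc
S100A11: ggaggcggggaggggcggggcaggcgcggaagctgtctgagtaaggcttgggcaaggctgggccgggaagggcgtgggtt

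The letters TATAAA began 29 bases before the start in S100A8, S100A9 and S100A13, 31 bases before it in S100A4 and 28 bases before it in S100P. These 5 of 8 genes compare with 2.64% of 27305 promoters that hold TATAAA on the gene strand with its first base 40 to 20 bases before the start. S100A12 has it 8 bases before the start, and S100A6 and S100A11 do not have these letters in the 250 bases before the start. The S100A6 sequence above does hold TATAAG, which differs in the last letter only. Such variants were not searched for. The CpG count over those 250 bases was 24 in S100A6 and 15 in S100A11, 10 in S100A13, 7 in S100A4, 4 in S100A9, 4 in S100P, 2 in S100A8 and 1 in S100A12, and the median of all promoters was 11. Over the same 250 bases on both strands, the PU.1-like letters GAGGAAG were found in S100A8 and S100A9 (3011 of all 27305 promoters), and the AHR core GCGTG in S100A6 and S100A11 (32.6% of all promoters). The C/EBP-like letters TTNCGNAA (2.22% of all promoters) and the antioxidant response element core TGACNNNGC (11.1%) were found in none of the 8. TGACNNNGC and GCGTG can overlap in the letters GC, and a match is a description of the sequence only.

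The values were normalized counts: the reads of a gene, scaled in each library by a single size factor. Whole reads were recovered from them. The listed genes held from 21502760 to 31679138 reads per library. The promyelocyte genes MPO, PRTN3, AZU1, CTSG, CD33 and ANPEP were present, with MPO, a primary granule enzyme, at 62588 ± 1949.8 normalized counts in DMSO (SD, n = 3), while ELANE and KIT had no row in the table. Libraries stood apart along the first principal component (PC1) of 16887 genes, which held 70.8% of the variance between libraries. DMSO replicate 1 scored -48.0, replicate 2 41.1 and replicate 3 -26.7. Tan I replicate 1 scored -46.8, replicate 2 8.65 and replicate 3 71.6, so the groups overlapped on PC1. With limma, 408 of the 16887 genes (2.42%) passed both an unadjusted p of 0.05 and a log2 change of 0.25 in size (called without adjustment, below), with 223 up in Tan I and 185 down. When all libraries were set to one total, 438 genes passed, 188 up and 250 down. An adjusted p of 0.05 was passed by 0 of the 16887 genes with limma, 0 with edgeR and 16 with DESeq2, none of them an S100 gene described here.

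S100P had the highest level of the 6 listed genes in NB4 cells, and S100A9, the one calprotectin gene in the table, had the lowest. Per kilobase of merged exons, the mean over the 6 libraries was 10075 normalized counts for S100P, 5414 for S100A11, 1640.0 for S100A4, 549 for S100A6, 393 for S100A13 and 45.7 for S100A9. In each of the 6 libraries every gene lay above the next one in this order. Between libraries, however, the ranges of neighbours overlapped at 2 of the 5 steps. The lowest S100P value (7024 per kilobase) was below the highest S100A11 value (7712), and the lowest S100A6 value (372) was below the highest S100A13 value (515). S100A9 stood clear of the rest, with its highest value at 60.5 per kilobase against the lowest S100A13 value of 315. Among all genes with a length, S100P was at the 99.5th percentile of the level per kilobase, S100A11 at the 99.2nd, S100A4 at the 97.1st, S100A6 at the 89.8th, S100A13 at the 85.3rd and S100A9 at the 42.9th. The order of S100A6 and S100A13 depends on the length used: per kilobase of the canonical transcript, S100A13 was at 1827 and S100A6 at 1228 normalized counts, since the merged exons of S100A13 span 2216 bases and its canonical transcript 477.

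**Figure D1:**
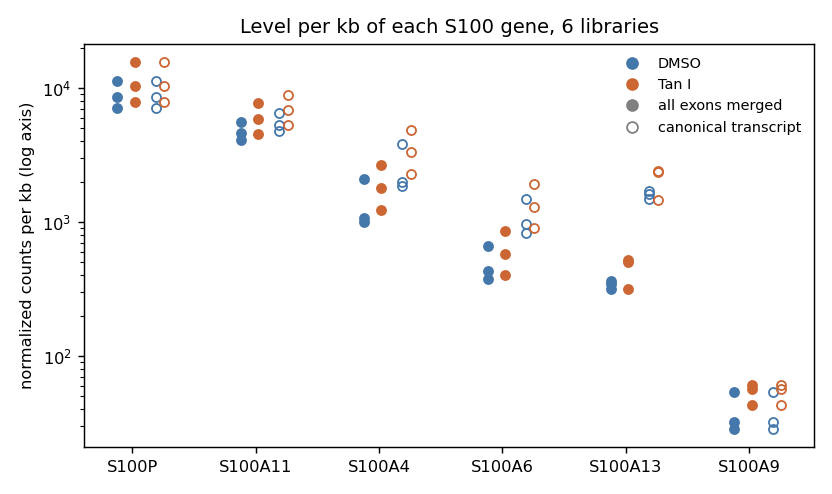
Level of the 6 listed S100 genes in normalized counts per kilobase (vertical log axis) in each DMSO (blue) and Tan I (orange) library, with filled points for the merged exons and open points for the canonical transcript. S100P lies highest, at a mean of 10075, and S100A9 lowest, at 45.7 per kilobase, in both groups.

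The comparison of Tan I with DMSO asks whether the treatment was accompanied by another level of these genes. The mean of each of the 6 listed genes was higher in Tan I, by ratios of 1.25 for S100P to 1.40 for S100A9, but in every gene the libraries of both groups overlapped. None of the 6 was called by limma, with or without adjustment, where 2.42% of all genes were called without adjustment and 0% with an adjusted p of at most 0.05. Groups that did not overlap were seen in 0 of the 6, against 7.89% of all genes tested. A mean higher in Tan I was seen in 6 of 6, against 49.7% of all genes (38.3% when all libraries were set to one total, where the 6 genes were still higher), and the median log2 fold change was 0.33 over the 6 genes and 0.00 over all genes. The count of 6 is not one of independent genes, because 4 of them shared the highest library of each group, as described below. In bulk RNA, more cells that express a gene and more RNA per cell cannot be told apart.

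S100P, a ligand of AGER and partner of ezrin, had 3308, 5310.0 and 4009 normalized counts in DMSO replicates 1, 2 and 3, and 3669, 4862 and 7313 in Tan I replicates 1, 2 and 3. Tan I replicate 3 was the highest library and DMSO replicate 2 the next, while Tan I replicate 1 was below DMSO replicate 3. The mean was 4209 ± 1016 in DMSO (SD, n = 3) against 5281 ± 1858 with Tan I (n = 3). The log2 fold change was 0.30 with a standard error of 0.28 and a 95% confidence interval of -0.35 to 0.94. It was 0.03 without Tan I replicate 3, 0.14 without DMSO replicate 1, 0.48 without DMSO replicate 2 and 0.53 without Tan I replicate 1.

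S100A11, a partner of annexins, had 2669.6, 3632 and 2986 normalized counts in DMSO replicates 1, 2 and 3 and 2962, 3829 and 5005 in those of Tan I. The upper values of the groups were apart, with Tan I replicates 2 and 3 above all DMSO libraries, and Tan I replicate 1 lay between DMSO replicates 1 and 3. The mean was 3096 ± 491 in DMSO (SD, n = 3) against 3932 ± 1026 with Tan I (n = 3), and the log2 fold change was 0.32 with a standard error of 0.21 (95% confidence interval -0.17 to 0.82). It was 0.13 without Tan I replicate 3, and 0.51 without Tan I replicate 1, where S100A11 was called without adjustment, among 1496 of the 16887 genes (limma adjusted p = 0.532).

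S100A13, which takes part in unconventional protein release, had 701, 766 and 808 normalized counts in DMSO, against 698, 1115 and 1142 with Tan I. The DMSO libraries were close together, Tan I replicates 2 and 3 were above all of them, and Tan I replicate 1 was the lowest of the 6. The mean was 758 ± 53.8 in DMSO (SD, n = 3) against 985 ± 249 with Tan I (n = 3). The log2 fold change was 0.34 with a standard error of 0.20 (95% confidence interval -0.13 to 0.82), and without Tan I replicate 3 it was 0.22. Without Tan I replicate 1 it was 0.58, where the gene was called without adjustment among the same 1496 (limma adjusted p = 0.532).

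S100A4, the partner of non-muscle myosin, had 949, 1969 and 1017 normalized counts in DMSO, against 1170.0, 1699 and 2504 with Tan I. DMSO replicate 2 was well above the other DMSO libraries and exceeded Tan I replicates 1 and 2. The mean was 1312 ± 570.0 in DMSO (SD, n = 3) against 1791 ± 672 with Tan I (n = 3), with a log2 fold change of 0.46 and a standard error of 0.35 (95% confidence interval -0.36 to 1.29). Without DMSO replicate 2 the value was 0.80, where the gene was called without adjustment, among 466 of the 16887 genes (limma adjusted p = 0.734). It was 0.74 without Tan I replicate 1, 0.27 without DMSO replicate 1 and 0.19 without Tan I replicate 3, and was not called.

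S100A6, the partner of CACYBP, had 361, 641 and 415 normalized counts in DMSO, against 390.0, 559 and 832 with Tan I. The libraries fell in the same order as for S100P. The mean was 472 ± 148 in DMSO (SD, n = 3) against 594 ± 223 with Tan I (n = 3), and the log2 fold change of 0.31 had a standard error of 0.31 (95% confidence interval -0.43 to 1.04). It was 0.03 without Tan I replicate 3, 0.13 without DMSO replicate 1, 0.55 without DMSO replicate 2 and 0.57 without Tan I replicate 1.

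S100A9, the calprotectin subunit, was counted with 33, 19 and 21 reads in DMSO replicates 1, 2 and 3 and with 25, 31 and 26 reads in those of Tan I. Scaled, these were 30.8, 18.3 and 16.4 normalized counts in DMSO, against 24.4, 32.7 and 34.7 with Tan I. DMSO replicate 1 was above Tan I replicate 1, and the other DMSO libraries were the lowest. The mean was 21.8 ± 7.80 in DMSO (SD, n = 3) against 30.6 ± 5.43 with Tan I (n = 3), with a log2 fold change of 0.51 and a standard error of 0.34 (95% confidence interval -0.30 to 1.31). It was 0.77 without DMSO replicate 1 and 0.34 without DMSO replicate 3. Counting error alone is large at this depth. The exact 95% Poisson interval, which covers counting error only, ran from 10.2 to 25.1 normalized counts for the lowest library, DMSO replicate 3, and from 22.6 to 50.8 for the highest, Tan I replicate 3.

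**Figure D2:**
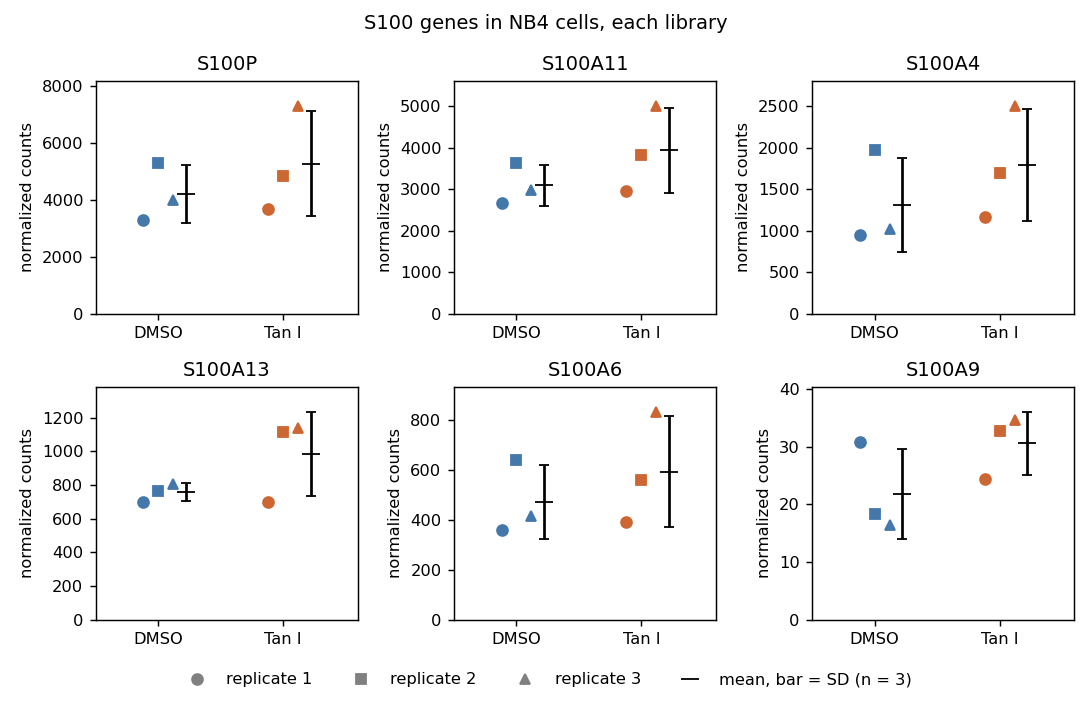
Normalized counts (vertical axes, from 0) of the 6 listed S100 genes in each DMSO (blue) and Tan I (orange) library, with the symbol giving the replicate number and the black bar the mean and SD (n = 3). In each panel at least 1 Tan I library lies below the highest DMSO library, and in 5 of the 6 genes DMSO replicate 1 or Tan I replicate 1 is the lowest.

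The adjusted p from limma was 0.999 for each of the 6 genes, and their unadjusted p-values ran from 0.131 for S100A13 to 0.362 for S100A6. The exact two-sided permutation test on single genes gave p from 0.2 for S100A9 to 0.6 for S100A6, where 3 libraries against 3 cannot go below 0.1. These values do not show that the genes were the same in both groups. As folds of Tan I over DMSO, the 95% confidence intervals ran from 0.914 to 1.76 for S100A13, 0.890 to 1.76 for S100A11, 0.786 to 1.92 for S100P, 0.742 to 2.06 for S100A6, 0.778 to 2.44 for S100A4 and 0.815 to 2.47 for S100A9. A fold of 2 was thus outside the interval for S100A13, S100A11 and S100P and inside it for S100A6, S100A4 and S100A9. For S100P the interval reached that fold under 6 of the alternatives, with an upper log2 limit of up to 1.16, and for S100A13 and S100A11 under 0. The 19 alternatives include edgeR and DESeq2, for which no interval was computed. The coefficient of variation was 43.5% between the DMSO libraries for S100A4, against at most 3.13% from counting, and 24.1% for S100P, against at most 1.68%. For S100A13 it was 7.09% in DMSO and 25.3% in Tan I, against up to 3.74% from counting. For S100A9 it was 35.8% in DMSO and 17.7% in Tan I, against up to 22.9% from counting.

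**Figure D3:**
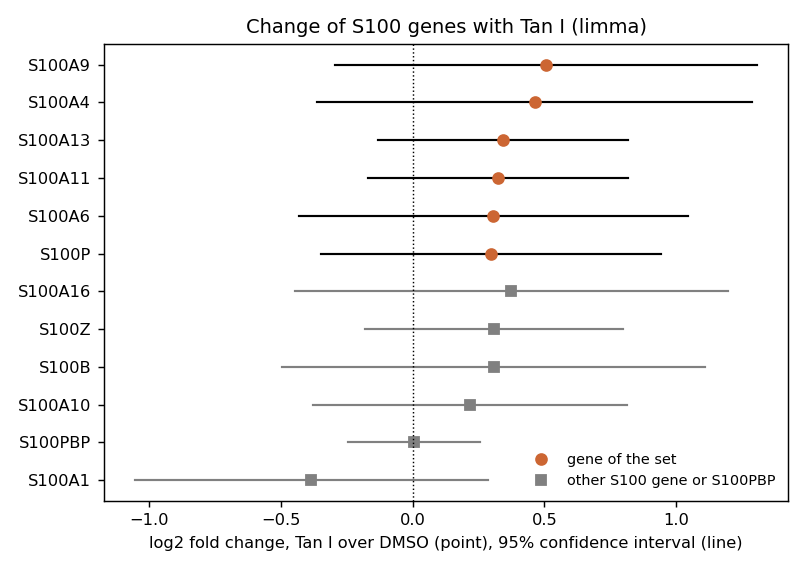
Log2 ratio of Tan I to DMSO from limma (horizontal axis), with its 95% confidence interval as a line, for the 6 listed genes (orange circles) and 5 other S100 genes and S100PBP, with a mean of at least 10 (grey squares). Each of the 12 intervals includes 0, and the 6 listed genes lie between 0.30 and 0.51.

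Most of the genes followed the gradient between libraries. From low to high, S100P and S100A6 lay in the order DMSO replicate 1, Tan I replicate 1, DMSO replicate 3, Tan I replicate 2, DMSO replicate 2 and Tan I replicate 3, which is the order of the PC1 scores. That order was seen in 4.90% of all genes tested and its reverse in 4.24%. In S100P, S100A6, S100A4 and S100A11, DMSO replicate 2 was the highest DMSO library and Tan I replicate 3 the highest Tan I library, which makes 4 of 6 genes, against 35% of all genes tested. S100A13 and S100A9 did not share this pattern: DMSO replicate 2 was the middle DMSO library for both. Tan I replicate 3 was still the highest library of both. In S100A13, Tan I replicate 1 and DMSO replicate 1 were the lowest libraries, as they were on PC1. S100A13 thus followed the gradient in part. With the PC1 score as a covariate in limma, the log2 fold changes were 0.12 for S100P, 0.10 for S100A6, 0.19 for S100A11, 0.23 for S100A4, 0.26 for S100A13 and 0.50 for S100A9. The limma adjusted p then lay between 0.14 for S100A11 and 0.583 for S100A6. S100A13 alone of the 6 was called without adjustment, among 1496 genes that were, while S100A11 and S100A4 passed the p threshold with a log2 change under 0.25. The PC1 score was computed from the same values that were fitted, so the p-values of this fit may be too small. The standard error of S100A11 was 0.06 in it, against 0.21 without the covariate.

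**Figure D4:**
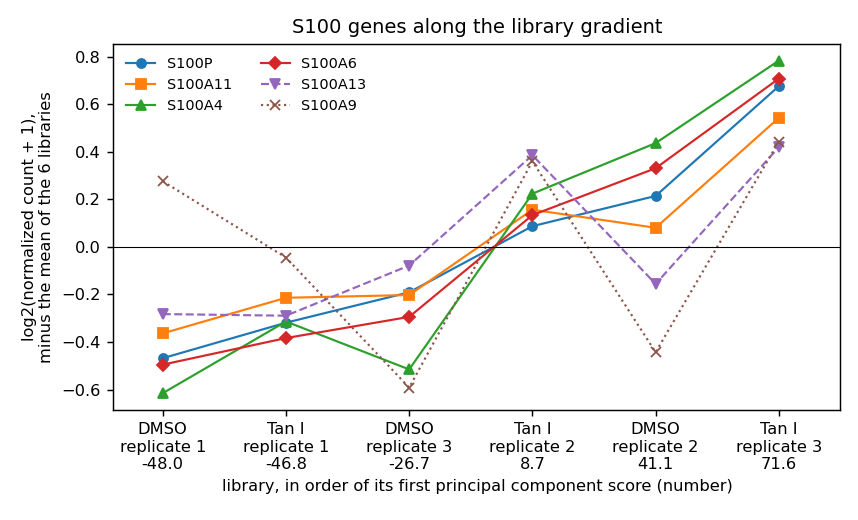
Log2(normalized count + 1) of each listed S100 gene minus its mean over the 6 libraries (vertical axis), with the libraries in the order of their PC1 score (horizontal axis, score given under each name). S100P and S100A6 climb without a break from DMSO replicate 1 to Tan I replicate 3, S100A4 and S100A11 nearly so, while S100A9 (dotted) and S100A13 (dashed) are low in DMSO replicate 2.

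The proportions between S100P, S100A11, S100A6 and S100A4 varied less over the libraries than the level of S100P did. The summed level of the 6 genes ran from 8020.0 normalized counts in DMSO replicate 1 to 16831 in Tan I replicate 3, and the S100P share of that sum stayed between 40.2% and 43.5%. The ratio of S100A6 to S100P ran from 0.103 to 0.121 over the 6 libraries, a range of 1.17-fold, while S100P itself ranged 2.21-fold and S100A6 2.31-fold. The ratio of S100A11 to S100P ranged 1.18-fold and that of S100A6 to S100A11 1.34-fold. The ratio of S100A4 to S100A6, which lie close together on chromosome 1, ran from 2.45 in DMSO replicate 3 to 3.07 in DMSO replicate 2, and was 3.00, 3.04 and 3.01 in the Tan I libraries. S100A9 varied most against S100P, with a ratio to S100P that ranged 2.70-fold. The size factor of a library cancels in such a ratio.

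By the smallest root mean square difference of centred log2 values over the 6 libraries, among genes with a mean of at least 50, the genes most like S100P were COX5A (0.03) and RGS10 (0.03), and those most like S100A11 were RAB5C (0.02) and ATP6V1E1 (0.03). The closest to S100A6 were COA6 (0.03) and TMEM11 (0.04), and to S100A4 they were IFITM10 (0.08) and ZNF480 (0.08). S100A13 was most like GPX1P1 (0.05) and MST1L (0.06), and S100A9 was most like FKBP9 (0.16) and PRSS8 (0.18). Within the family, the closest pair was S100A6 and S100P (0.07), and S100A9 and S100A4 were the farthest apart (0.54). The points are 6 libraries with a strong common gradient, so such likeness is a description.

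Other S100 genes were also uncalled. Of 13 further S100 family genes looked up, 6 had a row and 5 had a mean of at least 10, of which 4 had a positive log2 fold change and none was called. S100A10, the partner of annexin A2, was at 1289 ± 270.0 normalized counts in DMSO (SD, n = 3), against 1530.1 ± 489 in Tan I, a log2 fold change of 0.22. The log2 fold changes were 0.37 for S100A16, 0.31 for S100Z and 0.31 for S100B. S100A1, the gene overlapping S100A13 on the other strand, was at 57.7 ± 2.51 in DMSO (SD, n = 3) against 45.7 ± 16.2 with Tan I (n = 3), a log2 fold change of -0.38. The median of the 5 was 0.31, beside 0.33 for the 6 genes described here and 0.00 over all genes. In S100A10, S100A16, S100B and S100Z, Tan I replicate 3 was the highest library and DMSO replicate 2 the next. These libraries were the highest in 26.5% of all genes tested. S100A10 lay in the full order of the PC1 scores (4.90% of all genes tested), while in S100A1 Tan I replicate 3 was lowest. These medians are thus not ones of independent genes. S100PBP, which is no S100 protein but is named for binding S100P, was at 0.01.

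Receptors and partners of S100 proteins were present in NB4 cells and none was called. Of 26 looked up, 23 were tested, 19 with a positive and 4 with a negative log2 fold change, with a median of 0.11. Over all genes, 49.7% had a positive value. The libraries of EZR, ANXA5 and ANXA6 lay in the order of the PC1 scores, seen in 4.90% of all genes tested. In MYH9 and IQGAP1, both with a negative value, Tan I replicate 3 was the lowest library and DMSO replicate 2 the next. The 23 are thus not independent genes. The receptor gene AGER was at 765 ± 80.6 normalized counts in DMSO against 841 ± 225 in Tan I, and TLR4 was at 33.1 ± 19.7 and 29.3 ± 3.89 (SD, n = 3 each). The log2 fold changes of the intracellular partners were 0.23 for CACYBP, 0.27 for ANXA2, 0.28 for ANXA1, 0.07 for EZR and -0.05 for MYH9. LY96, a co-receptor of TLR4, was the only 1 of the 23 whose groups did not overlap, against 7.89% of all genes tested. LY96 had 12.1, 12.5 and 16.4 normalized counts in DMSO, against 16.6, 23.2 and 33.3 with Tan I. It rests on 13 to 25 reads per library and was singled out after its values were seen. Of 10 transcription factors and other regulators listed for S100A8 and S100A9 in myeloid cells, 5 had a positive log2 fold change. By limma, 0 were called and 0 passed an unadjusted p of 0.05. PML, at 0.10, was the only 1 of the 10 whose groups did not overlap, against 7.89% of all genes tested, and RARA was at 0.22. The paper describes NB4 cells as positive for PML-RARa, so reads of that fusion may be counted in both genes. SPI1, which encodes PU.1, was at 0.36 on the log2 scale and was not called, while CEBPB was at 0.04, CEBPE at -0.12, KLF4 at -0.24 and CEBPD at -0.35, the lowest of the list.

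Some genes of neutrophil maturation and of the primary granules were called without adjustment, in both directions. Over all genes tested, 2.42% were called in this way. The lists were written with earlier results of these data known, and the paper had reported MMP9 as up-regulated by Tan I. Of 10 neutrophil cytosol and later granule genes tested, 3 were called without adjustment, all higher in Tan I: MMP9 with a log2 fold change of 0.58, NCF1 with 0.97 and CHI3L1 with 0.55. NCF1, an oxidase subunit, has near-identical copies in the genome, so its reads are uncertain. ITGAM, which encodes CD11b, was at -0.10 and was not called. Of 6 promyelocyte genes, MPO at -0.78 and CTSG at -0.69 were called lower and ANPEP at 0.33 was called higher. Of the 6 monocyte and macrophage genes in the table, C1QA was called higher, at 3.45, while CD14 at 0.64 and CSF1R at 0.46 were not called. The summed level of these 6 genes was 62.5 to 102 normalized counts in DMSO against 223 to 359 with Tan I, mostly C1QA, and FCGR3A, CD163, MARCO, MRC1, CD68 and C1QB had no row. Genes of lymphoid, erythroid, epithelial and fibroblast cells were looked up too: 4 of 11 had a row, with sums of 363 to 422 normalized counts over all libraries and 0 called. The part of these cell types in the S100 values was not tested. Each of these 7 called genes had an adjusted p from limma between 0.118 for C1QA and 0.999 for the others.

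Over 19 alternative ways of processing, the log2 fold change of each S100 gene stayed above 0 and none had an adjusted p of at most 0.05. The lowest values were those without Tan I replicate 3, except for S100A9, and the highest those without Tan I replicate 1, except for S100A4 and S100A9.

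**Figure D5:**
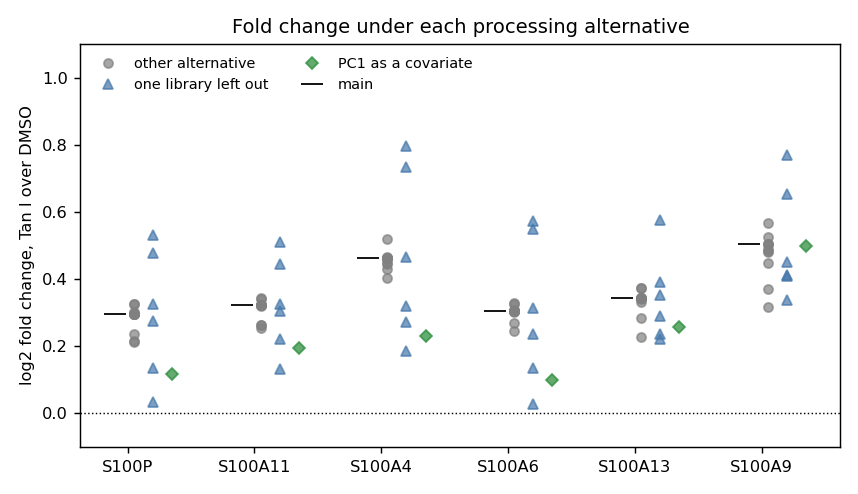
Log2 ratio of Tan I to DMSO (vertical axis) of each listed S100 gene as reported (black bar), with 1 library left out (blue triangles), with PC1 as a covariate (green diamond) and under the other alternatives (grey). Every point lies above 0, and for S100P and S100A6 the values without Tan I replicate 3 come down to 0.03.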

How the data were processed

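RNA-seq of NB4 cells was compared between 3 DMSO and 3 Tan I libraries, grouped and numbered by their titles. As deposited by the authors, the signal values are normalized counts, scaled by a size factor for each library. Per the paper's methods, the authors aligned reads to GRCh38 with STAR, dropped reads at several locations and counted with featureCounts; versions and strand setting are not given in the sources used here. Columns with a log2 fold change, a score and p-values are the authors' deposited comparison and were not used. In each library 100% of values were whole multiples (within 0.01 read) of what 1 read was worth.

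limma 3.58.1 in R 4.3.3 (eBayes with trend, treatment only) was run on log2(normalized count + 1) for the 16887 genes whose mean reached 10. Adjustment was by Benjamini-Hochberg over all of them. On this scale the changes of low genes are understated. Alternatives included edgeR 4.0.16 and DESeq2 1.42.0 on recovered reads. The scripts were tested on simulated data. Lengths and positions are from GENCODE release 44, in which 99.6% of identifiers were found. Promoters were 250 bases before the RefSeq start nearest to the canonical start.

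Members and lists were chosen with earlier results of these data known. Named genes were all members, other S100 and monocyte genes whose mean reached 10, list genes called, and the 2 genes most like each member; an item that this rule would name is not reported here. AGER, TLR4, LY96, the partners, SPI1, CEBPB, CEBPD, CEBPE, KLF4, PML, RARA and ITGAM, and the TATA box motif, were added after values were seen.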

Additional observations from a re-analysis of the deposited data

How the results depend on the processing

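Each of the 113 values of the S100 genes under 19 alternatives kept its direction, and 0 had an adjusted p of at most 0.05. S100A9 has 1 value fewer, being left out at a mean of at least 50. Without adjustment, 1 of the S100 genes was called with PC1 as a covariate (S100A13) and 1 without both DMSO replicate 2 and Tan I replicate 3, the highest on PC1 (S100A4), and leaving out 1 library gave 0 to 2 calls: S100A4 without DMSO replicate 2, and S100A11 and S100A13 without Tan I replicate 1. The other settings gave 0, edgeR and DESeq2 included. Over all genes, the 408 calls without adjustment became 49 when a log2 change of 1 in size was asked for, 1496 with PC1 as a covariate and 160 (without Tan I replicate 2) to 1496 (without Tan I replicate 1) with 1 library left out. They were also 180 without DMSO replicate 1, 466 without DMSO replicate 2, 201 without DMSO replicate 3, 271 without Tan I replicate 3 and 477 without both libraries. With adjustment, DESeq2 called 16 genes, PC1 as a covariate 194 and the fit without both libraries 2. The PC1 score came from the same values that were fitted, so counts with it as a covariate may be too high. DESeq2 gave no adjusted p for S100A9. The cause of these differences was not tested. Correcting for transcript length and GC content, and leaving out both libraries, were added after seeing the data. Deviations of same-numbered libraries correlated at 0.75, -0.09 and -0.45. Those of DMSO replicate 2 and Tan I replicate 3, which differ in number, correlated at 0.76. With such a common gradient, these values cannot tell whether same-numbered libraries were set up together. With the replicate block, 348 genes and 0 of the S100 genes were called. S100A9 rests on 19 to 33 reads per library.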
